A study of Mus musculus with 18 samples.

Results

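The 31 genes described here encode enzymes that make cholesterol, proteins that sense it, and proteins that take it up, move it, store it or release it. They were chosen by name and by a count rule, at least 10 expected counts in 6 or more libraries, which all 31 passed. Of the 55416 genes in the files, 17173 passed the same rule. The members were measured in whole ovaries of 18 female wild-type Balb/c mice by 3' RNA sequencing, with 1 library per mouse and 6 mice per group. The 8-week controls (labelled YC) and the 40-week controls (OC) were given distilled water, and the 40-week treated mice (OC+SM) received Samul-tang, a herbal decoction, at 2.5 g/kg, all by mouth 5 times a week for 4 weeks. All 3 groups were then primed with pregnant mare serum gonadotropin (5 IU) and injected 48 hours after that with hCG, human chorionic gonadotropin (5 IU). Ovaries were collected 16 hours after hCG, so every library, controls included, came from a hormone-stimulated ovary. Mice of the OC and OC+SM groups were housed in divided cages, and the labels do not say which mice shared one.

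Cells build cholesterol from acetyl-CoA through mevalonate, farnesyl pyrophosphate, squalene and lanosterol. When membranes of the endoplasmic reticulum hold little sterol, the escort protein encoded by Scap carries the transcription factors encoded by Srebf1 and Srebf2 to the Golgi for cleavage, and the cleaved Srebf2 product raises transcription of most of the enzyme genes. When sterol is plentiful, the Insig proteins hold Scap back. In the ovary, cholesterol is the substrate of all steroid hormones, and rodent luteal cells obtain much of it from high-density lipoprotein through the receptor encoded by Scarb1.

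Promoter windows of the members are shown because enzyme genes of this pathway share a mode of transcriptional control. A RefSeq table on build GRCm38.p6, which holds 250 bases before and 50 after each annotated start, had windows for 25 of the 31 members. The letters CCAAT, the core of the NF-Y motif, stood on at least 1 strand in windows of 23 of these 25 genes (92%), against 41.1% of all 27018 genes in the table, which include noncoding genes. The GC box GGGCGG was found for 23 of the 25 (92%), against 38.2%, and the E-box CACGTG for 5 (20%), against 8.09%. TCACNCCAC, which resembles a sterol regulatory element, was found for 2 of the 25 (8%), Hmgcs1 and Stard3, against 1.44%. All were searched on both strands, and these counts describe letters in windows of fixed length. By windows rather than genes, CCAAT was in 72.7% of 33 member windows and 37.4% of 32841 windows in all. The windows below belong to the 5 genes with the smallest p among the members called in the comparison of 40-week with 8-week controls that have a window, and to Hmgcs1, chosen after its match was seen because it holds TCACCCCAC at position -137 from the start. Capitals mark matches of the 4 motifs on either strand, and each sequence is written 5' to 3' on the gene's own strand. Sc5d lies at chr9:42264251-42264550 (minus strand), Scap at chr9:110333038-110333337 (plus; the first of its 2 windows), Lipa at chr19:34527425-34527724 (minus), Ebp at chrX:8193463-8193762 (minus), Acat2 at chr17:12960676-12960975 (minus) and Hmgcs1 at chr13:119690101-119690400 (plus).
Sc5d: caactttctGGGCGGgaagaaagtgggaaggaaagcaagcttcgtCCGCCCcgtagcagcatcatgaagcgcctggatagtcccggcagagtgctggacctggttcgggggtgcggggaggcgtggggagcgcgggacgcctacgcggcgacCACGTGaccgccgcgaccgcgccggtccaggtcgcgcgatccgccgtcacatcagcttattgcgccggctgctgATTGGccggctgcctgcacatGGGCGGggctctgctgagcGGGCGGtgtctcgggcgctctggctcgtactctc
Scap: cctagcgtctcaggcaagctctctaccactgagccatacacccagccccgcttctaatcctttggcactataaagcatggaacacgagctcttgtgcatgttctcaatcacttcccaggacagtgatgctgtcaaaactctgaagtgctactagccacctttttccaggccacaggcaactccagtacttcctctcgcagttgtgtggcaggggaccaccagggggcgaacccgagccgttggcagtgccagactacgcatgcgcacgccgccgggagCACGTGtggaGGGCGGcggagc
Lipa: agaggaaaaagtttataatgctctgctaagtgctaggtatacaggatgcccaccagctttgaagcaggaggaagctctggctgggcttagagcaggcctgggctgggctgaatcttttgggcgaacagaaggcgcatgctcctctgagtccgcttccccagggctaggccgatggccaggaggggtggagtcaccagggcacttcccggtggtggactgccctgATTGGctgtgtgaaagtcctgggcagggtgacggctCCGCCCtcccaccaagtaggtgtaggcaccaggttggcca
Ebp: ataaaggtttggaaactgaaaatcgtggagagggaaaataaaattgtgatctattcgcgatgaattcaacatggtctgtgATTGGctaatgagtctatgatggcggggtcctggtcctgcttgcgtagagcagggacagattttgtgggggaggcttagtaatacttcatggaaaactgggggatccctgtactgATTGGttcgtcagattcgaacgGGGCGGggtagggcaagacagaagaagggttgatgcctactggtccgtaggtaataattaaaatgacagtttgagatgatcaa
Acat2: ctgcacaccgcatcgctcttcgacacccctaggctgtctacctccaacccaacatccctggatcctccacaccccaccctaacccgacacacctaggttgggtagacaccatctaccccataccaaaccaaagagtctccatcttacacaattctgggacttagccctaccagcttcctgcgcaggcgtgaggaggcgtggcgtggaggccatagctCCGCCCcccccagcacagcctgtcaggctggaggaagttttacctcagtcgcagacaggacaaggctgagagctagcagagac
Hmgcs1: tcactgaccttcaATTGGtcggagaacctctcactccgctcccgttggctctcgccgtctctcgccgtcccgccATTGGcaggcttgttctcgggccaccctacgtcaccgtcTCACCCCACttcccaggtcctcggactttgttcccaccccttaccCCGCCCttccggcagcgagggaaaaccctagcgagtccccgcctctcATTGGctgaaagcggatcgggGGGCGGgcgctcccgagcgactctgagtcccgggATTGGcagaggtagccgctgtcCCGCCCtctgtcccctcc
The Hmgcs1 window held 4 CCAAT matches, 3 GC boxes and 1 TCACNCCAC match. Among the called genes, the Sc5d window held 4 GC boxes, 1 CCAAT match and 1 E-box, the Ebp window 2 CCAAT matches and 1 GC box, and the Lipa window 1 CCAAT match and 1 GC box. The Scap and Acat2 windows held no CCAAT match.

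Depth, as the sum of expected counts divided by 1000000, was 9.05 to 14.15 in 8-week controls, 11.61 to 13.43 in 40-week controls and 14.2 to 20.35 in treated mice. Treated libraries were all deeper than those of 40-week controls (mean 17.24 ± 2.05 against 12.49 ± 0.72, SD, n = 6, two-sided exact permutation p = 0.00216, the smallest this design allows). They were also all deeper than those of 8-week controls (mean 12.44 ± 1.89, SD, n = 6, exact permutation p = 0.00216). In both comparisons of treated mice, depth and treatment cannot be told apart. The most abundant gene, ENSMUSG00000119584, took 6.2 to 14.4% of counts in treated and 13.8 to 18.5% in 40-week control libraries. Every member had at least 123 counts in every library. Libraries stood apart as well. Young control 3 was the shallowest of all and had 1427 CPM (counts per 1000000, scaled between libraries) of summed theca and interstitial markers, against 415 to 529 CPM in the other young controls, and the lowest summed luteal markers of the 18 libraries, 10159 CPM. Most of its theca sum came from Aldh1a1 (942 CPM) and Cyp17a1 (383 CPM), while the other theca markers had at most 63.4 CPM in any young control. Treated library 6 correlated least with its own group (mean r across genes 0.963).

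With age, most cholesterol genes had higher values: 30 of 31 had a positive log2 fold change in 40-week against 8-week controls, and 8 passed the test, all of them higher. A gene is said to be called, or to have risen or fallen, when the edgeR quasi-likelihood test gave an adjusted p under 0.05 over all 16959 genes tested. The 8 called genes were Fdps, Sc5d, Sqle, Ebp and Acat2 of the synthesis enzymes, Scap of the sterol sensors, and Stard4 and Lipa of the handling genes. They make up 25.8% of the members, against 11.3% of all genes tested that were called, 5.25% higher and 6.03% lower. The median log2 fold change of the 31 was 0.30, with values from -0.05 to 0.74, against a median of 0.01 over all genes tested. Without young control 3 it was 0.22, with 6 members called and 29 positive. The count of called members fell to 5 without aged control 3 and to 4 without either young control 2 or young control 6, and rose to 10 without either young control 1 or young control 5.

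**Figure D1:**
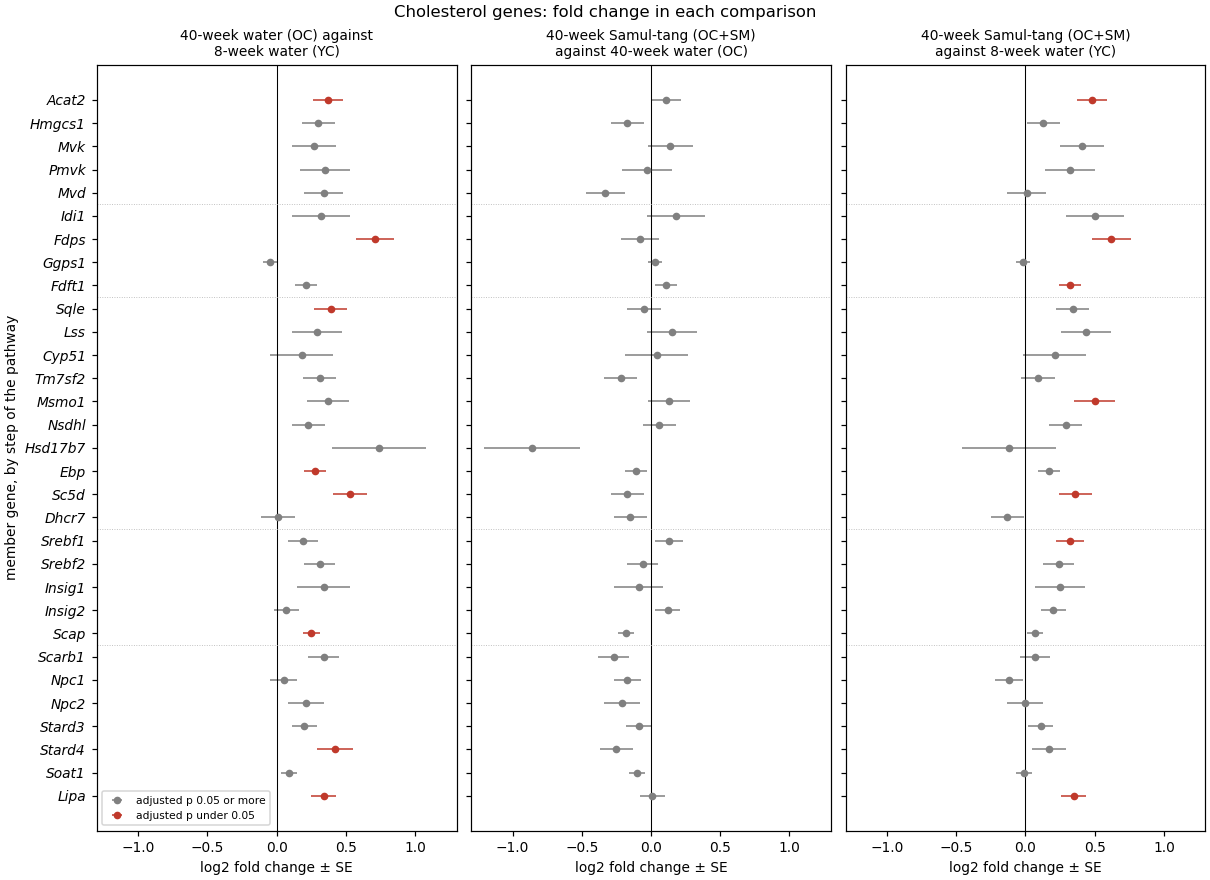
Log2 fold change (x axis) with its standard error (bars) of each of the 31 members (y axis, in pathway order, dotted lines between role groups) in the 3 comparisons, with red for an adjusted p under 0.05. In the left panel 8 members are red and 30 points lie to the right of 0, in the middle panel none is red, and in the right panel 7 are red.

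The first enzymes turn acetyl-CoA into mevalonate and activate it. All 5 mevalonate genes had positive log2 fold changes with age, from 0.27 to 0.37, and 1 was called. Acat2, the cytosolic thiolase that joins a pair of acetyl-CoA molecules, stood at 74.7, 118 and 143 CPM (lowest, median and highest of 6) in 8-week controls and at 135, 150 and 164 CPM in 40-week controls. Of the 40-week libraries, 4 lay above the highest young one, and the ranges overlapped. Its log2 fold change was 0.37 ± 0.11 (SE, edgeR adjusted p = 0.0279). Mice carry a close copy, Acat3, with which reads may be shared. The call was lost when aged control 3 or 6 or young control 2 or 6 was left out, with an edgeR adjusted p of up to 0.0618.

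Hmgcs1, which makes HMG-CoA, ran from 804 to 1467 CPM in 8-week and from 1340 to 1654 CPM in 40-week controls and was not called (0.30 ± 0.12, edgeR adjusted p = 0.12). The kinase genes Mvk and Pmvk (0.27 ± 0.16 and 0.35 ± 0.18) and the decarboxylase gene Mvd (0.34 ± 0.14) were not called either. In each of these 4 genes young control 3 was the lowest of all 18 libraries. Without it Hmgcs1 had 0.20 ± 0.09, Mvk 0.15 ± 0.14 and Pmvk 0.22 ± 0.14, and the median of the 5 mevalonate genes was 0.22 in place of 0.34.

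Next in the pathway, isoprenoid units are joined into farnesyl pyrophosphate and squalene. Fdps, which makes farnesyl pyrophosphate, had the smallest p of the members. It stood at 196, 346 and 399 CPM in 8-week and at 476, 532 and 619 CPM in 40-week controls. Every aged control lay above every young control, which held for 4 members and for 3.21% of all genes tested, while 0 members and 4.17% of genes lay wholly below. The log2 fold change was 0.71 ± 0.14 (SE, edgeR adjusted p = 0.0022), a ratio of 1.63, and it passed the test in all 24 alternatives tried, with log2 values from 0.59 to 0.77.

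Idi1, which interconverts the isoprenoid units, and Fdft1, the squalene synthase gene, were not called (0.32 ± 0.21 and 0.21 ± 0.08). Without young control 3 Idi1 had 0.15 ± 0.11. Fdft1 was called without young control 5 (edgeR adjusted p = 0.0281). Ggps1, which makes the longer geranylgeranyl chain used to anchor proteins in membranes rather than sterol, was the only member with a negative value (-0.05 ± 0.05). Its 18 libraries lay between 58.5 and 69.5 CPM, and its sign turned on the log2 TPM scales.

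From squalene onward, 10 genes encode the steps to lanosterol and cholesterol, and 3 of them were called higher. Sqle, the oxidase that begins this stretch, stood at 56.4, 99.5 and 111 CPM in 8-week and at 105, 121 and 139 CPM in 40-week controls (0.39 ± 0.12 SE, edgeR adjusted p = 0.0408). Of the 40-week libraries, 5 were above the highest young one. Its call was lost on leaving out aged control 1, 2, 3, 4 or 6, or young control 2 or 6, with an edgeR adjusted p of up to 0.0893.

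Ebp, the sterol isomerase, went from 89.3, 108 and 128 CPM to 112, 134 and 143 CPM (0.28 ± 0.08 SE, edgeR adjusted p = 0.0226). The ranges overlapped, and 4 aged controls lay above all young ones. The call was lost on removal of aged control 2 or of young control 2, 3 or 6, with an edgeR adjusted p of up to 0.064.

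Sc5d, the desaturase near the end of the pathway, went from 141, 151 and 165 CPM to 175, 205 and 269 CPM. The groups did not overlap, and aged controls 2 and 6 were the highest. The log2 fold change was 0.53 ± 0.12 (SE, edgeR adjusted p = 0.00418), and it passed in all 24 alternatives.

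The other 7 genes of this stretch were not called with age. Hsd17b7 had the largest value and the widest error (0.74 ± 0.34, edgeR adjusted p = 0.206). It encodes a sterol reductase that is also known in luteal cells as an enzyme that makes estradiol. Its 8-week libraries lay between 411 and 578 CPM except young control 3 at 981 CPM, and the 40-week libraries stood at 653, 791 and 1419 CPM, with aged controls 2 and 6 highest. In a fit without young control 3 and treated library 6 its log2 fold change was 0.98 ± 0.20 (SE, edgeR adjusted p = 0.00477). Without young control 3 alone it was 0.98 ± 0.34 and not called (edgeR adjusted p = 0.0858).

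Cyp51, Msmo1, Nsdhl and Tm7sf2, which trim and reduce lanosterol, had values of 0.18 ± 0.23, 0.37 ± 0.15, 0.23 ± 0.12 and 0.31 ± 0.12, and Lss, which closes the ring system, 0.29 ± 0.18. Without young control 3 Cyp51 had 0.00 ± 0.14, Nsdhl 0.13 ± 0.09 and Lss 0.17 ± 0.14. Tm7sf2 was called without young control 1 (edgeR adjusted p = 0.0348). Dhcr7, which encodes a final reductase, stood at 0.01 ± 0.12, and its sign turned in 8 of 24 alternatives. Its range was 83.2 to 125 CPM in 8-week and 90.1 to 143 CPM in 40-week controls.

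**Figure D2:**
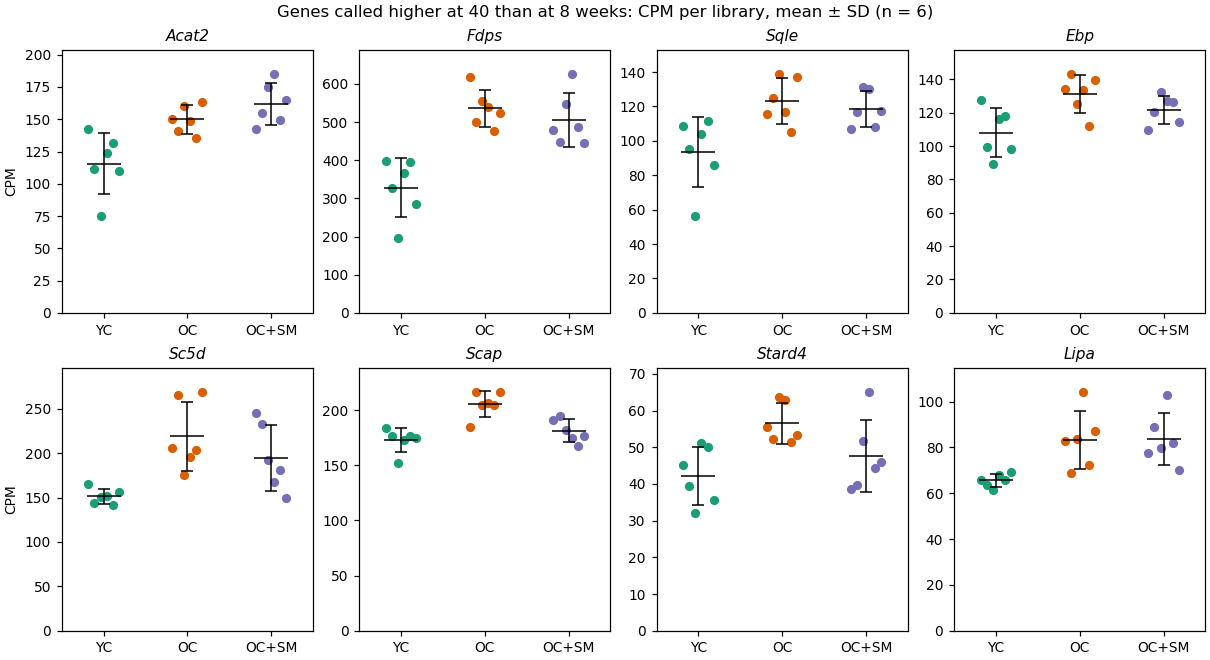
Level in CPM (y axis, from 0) of the 8 members called higher in 40-week than in 8-week controls, with 1 point per library in each of the 3 groups (x axis) and bars for mean ± SD (n = 6). Aged controls lie above all young controls for Fdps, Sc5d, Scap and Stard4, and the treated libraries overlap the aged controls in every panel.

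Among the sterol sensors, Scap rose and the other 4 were not called. Scap stood at 152, 175.5 and 184 CPM in 8-week and at 185, 206 and 217 CPM in 40-week controls. The groups did not overlap, although the lowest aged and highest young libraries nearly touched. The log2 fold change was 0.25 ± 0.06 (SE, edgeR adjusted p = 0.00503), and it passed in all 24 alternatives.

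The transcription factor genes Srebf2 and Srebf1 had 0.31 ± 0.11 and 0.19 ± 0.11. Srebf2 missed the threshold (edgeR adjusted p = 0.0714) and passed it without aged control 5 (0.0279). Insig1, itself known as a target of this pathway, had 0.34 ± 0.19, and Insig2 0.07 ± 0.09.

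The handling genes include a receptor, proteins that carry sterol between membranes, and enzymes that store or free it. Of 7, Lipa and Stard4 rose. Lipa, the lysosomal acid lipase that frees cholesterol from lipoprotein esters, was tightly grouped in 8-week controls at 61.6, 65.8 and 69.1 CPM and wider in 40-week controls at 68.7, 83.2 and 104 CPM. All but 1 of the aged controls lay above every young one (0.34 ± 0.09 SE, edgeR adjusted p = 0.0132). On the log2 TPM scales it was not called, with an adjusted p of up to 0.0576 by limma.

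Stard4, a soluble sterol carrier, went from 32, 42.3 and 51.2 CPM to 51.3, 54.3 and 63.7 CPM, without overlap (0.42 ± 0.13 SE, edgeR adjusted p = 0.0333). The lowest aged library was just above the highest young one. The call was lost if aged control 1, 3 or 4 or young control 2, 3 or 6 was left out, with an edgeR adjusted p of up to 0.0817.

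Scarb1, the receptor for high-density lipoprotein, ran from 782 to 1234 CPM in 8-week and from 1139 to 1293 CPM in 40-week controls and just missed the threshold (0.34 ± 0.11, edgeR adjusted p = 0.0568). It was called without either young control 1 or young control 5, and with DESeq2 (adjusted p = 0.023). Npc1 and Npc2, which export cholesterol from lysosomes, had 0.05 ± 0.10 and 0.21 ± 0.13, Stard3, which tethers late endosomes to the endoplasmic reticulum, 0.20 ± 0.09, and Soat1, which esterifies cholesterol for storage, 0.09 ± 0.06. None of these 4 was called. Without young control 3 Npc1 had 0.12 ± 0.09.

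Other genes of sterol and isoprenoid metabolism moved in both directions. Of 45 listed, 43 were tested, and their median log2 fold change with age was 0.06. Called were 5 higher (11.6%) and 2 lower, against 5.25% higher and 6.03% lower of all genes tested. Among those higher were Nr1h3, a nuclear receptor for oxysterols (0.61 ± 0.12), Fnta, a subunit of protein farnesyltransferase (0.28 ± 0.07), and the lipoprotein receptor gene Lrp1 (0.25 ± 0.08). Gramd1b, which moves cholesterol from the plasma membrane inward, fell from a median of 297 to 171.5 CPM (-0.75 ± 0.16), and the lipoprotein receptor gene Vldlr fell as well (-0.41 ± 0.09).

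Markers of several ovarian cell types differed between the same groups. Summed luteal and steroidogenic markers ran from 10160 to 14090 CPM in 8-week controls, from 15230 to 17720 CPM in 40-week controls and from 15840 to 18740 CPM in treated mice, with 2 of 9 markers called higher with age. These 2, Cyp11a1 (median 6228 CPM in 40-week controls) and Hsd3b1 (4585 CPM), also had the highest levels of the 9. With age 8 of the 9 had positive values, but Star (0.18 ± 0.21) and Fdx1 (0.11 ± 0.20) were not called, and Parm1 was negative (-0.23 ± 0.23). Of 8 granulosa markers tested, 4 were called lower, of 6 theca and interstitial markers 3 lower and 1 higher, of 9 oocyte markers all 9 lower, and of 7 stromal markers 3 lower. Summed macrophage markers ran from 216 to 469 CPM in 8-week and from 336 to 470 CPM in 40-week controls, with 2 of 10 called higher. Summed adipocyte markers ran from 14.3 to 49.9 CPM in 8-week and from 42.6 to 89.6 CPM in 40-week controls, and of 3 tested 1, Fabp4, was called higher. Fabp4, a fatty acid carrier also known from macrophages and endothelium, ran from 3.73 to 8.49 CPM in 8-week and from 29.3 to 63.5 CPM in 40-week controls (2.65 ± 0.33, edgeR adjusted p = 7.3e-05). Of the other adipocyte markers Plin1 had a negative value and was not called (-0.47 ± 0.35, medians 23.1 CPM in 8-week and 15.1 CPM in 40-week controls). Retn was not called either (0.75 ± 0.56), Lep was at 0 in all libraries and Adipoq had at most 5 counts. The part of these cell types in the levels of the cholesterol genes was not tested, and in whole ovaries fewer cells of a type and less RNA per cell cannot be told apart.

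No member was called with Samul-tang by edgeR. In treated against untreated 40-week ovaries, 0 of 31 members passed the edgeR test, against 1.04% of all genes tested (0.548% higher and 0.489% lower), and 4 of 31 had an unadjusted p under 0.05, against 16.9% of all genes tested. The median log2 fold change was -0.08, with 12 members positive and 19 negative, against 0.01 over all genes tested. In no member did the groups separate without overlap, which 0.849% of genes did upward and 0.678% downward. Log2 fold changes of 30 members lay between -0.33 and 0.18. DESeq2 called 1 member, Scap, and limma on log2 TPM called 1, Soat1.

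Scap, Scarb1, Soat1, Hmgcs1, Hsd17b7 and Stard4 each had 4 or 5 of 6 treated libraries below all 40-week controls. In no member did more than 3 treated libraries lie above them all. How many of all genes tested had 4 or 5 treated libraries below or above all 40-week controls was not counted. These counts are therefore not shown to be particular to the members. Scap stood at 168, 180 and 195 CPM in treated mice, and 4 of 6 treated libraries lay below all 40-week controls (-0.18 ± 0.06 SE, edgeR adjusted p = 0.105, DESeq2 adjusted p = 0.033). Scarb1 stood at 886, 938 and 1365 CPM, and 5 of 6 treated libraries lay below every 40-week control while treated library 2 lay above them all (-0.27 ± 0.11, edgeR adjusted p = 0.227). Mvd had -0.33 ± 0.14. Soat1 had -0.10 ± 0.06 on counts and -0.31 ± 0.06 on the log2(TPM + 1) scale, where its adjusted p was 0.0253 by limma.

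Hsd17b7 had the largest difference and did not pass. Treated libraries stood at 126, 550.5 and 688 CPM against 653, 791 and 1419 CPM in 40-week controls. Treated library 6 was the lowest of all 18 libraries, and the other treated libraries lay between 466 and 688 CPM. The log2 fold change was -0.86 ± 0.35 (SE, edgeR adjusted p = 0.218), and -0.66 ± 0.20 without treated library 6 and young control 3 (edgeR adjusted p = 0.0913). Without treated library 6 alone it was -0.66 ± 0.26 (edgeR adjusted p = 0.216).

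The other 7 genes that rose with age had these treated levels. Fdps had 444, 484 and 627 CPM in treated mice (-0.08 ± 0.14 against 40-week controls), Sc5d 150, 187 and 245 CPM (-0.17 ± 0.12, and -0.10 ± 0.11 without treated library 6), and Lipa 70.2, 80.8 and 103 CPM (0.01 ± 0.09). Acat2 had 142, 160 and 185 CPM (0.11 ± 0.11), Sqle 107, 117 and 132 CPM (-0.05 ± 0.12) and Ebp 110, 123 and 133 CPM (-0.11 ± 0.08). Stard4 had 38.7, 45.2 and 65.1 CPM, and 4 of 6 treated libraries lay below every 40-week control (-0.25 ± 0.12, edgeR adjusted p = 0.32). In each of these 7 genes the treated range overlapped that of the 40-week controls. The age and Samul-tang comparisons share the 40-week controls, so an unusual control level enters both with opposite sign.

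**Figure D3:**
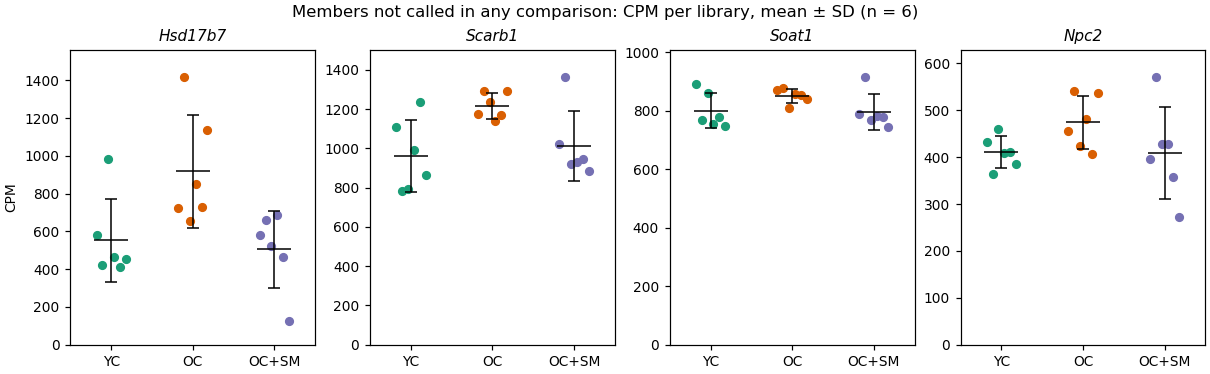
Level in CPM (y axis, from 0) of Hsd17b7, Scarb1, Soat1 and Npc2, with 1 point per library in each of the 3 groups (x axis) and bars for mean ± SD (n = 6), chosen after their values were seen. Single libraries set the spread, such as 126 CPM of Hsd17b7 in treated library 6 and 1365 CPM of Scarb1 in treated library 2.

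Against 8-week controls, treated 40-week ovaries had 7 members called higher and none lower. That is 22.6% of members, against 22.4% of all genes tested that were called, 11.5% higher and 10.9% lower. The median log2 fold change was 0.21, with 25 members positive, and 0.14 without young control 3. This comparison shares its treated libraries and its young controls with the other comparisons. With a covariate for the share of ENSMUSG00000119584 in each library 3 members were called, and 1368 genes in all in place of 3795.

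Fdps (0.62 ± 0.14), Acat2 (0.48 ± 0.11), Lipa (0.35 ± 0.09) and Sc5d (0.36 ± 0.12) were called here as with age, and Msmo1, Fdft1 and Srebf1 were called here and not there. Treated Msmo1, the gene of a lanosterol demethylation step, stood at 504, 656 and 756.5 CPM and 8-week controls at 251, 467 and 586 CPM (0.50 ± 0.15, edgeR adjusted p = 0.0233). The 40-week controls had 537.5, 575 and 661 CPM. It lost its call without any one of treated libraries 3 and 4 and young control 6 (edgeR adjusted p up to 0.0512). Fdft1 stood at 110, 138 and 144 CPM against 86.6, 109 and 127 CPM (0.32 ± 0.08, edgeR adjusted p = 0.00453). All but treated library 1 were above every young control, and the 40-week controls had 119, 121 and 136 CPM.

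Srebf1, whose product acts mainly on fatty acid synthesis, stood at 25, 27.7 and 33 CPM in treated mice and at 19.2, 23.4 and 24.4 CPM in 8-week controls, with 19.9, 25.7 and 33.2 CPM in 40-week controls. The groups did not overlap (0.32 ± 0.10, edgeR adjusted p = 0.0301), which held for 3 members, Fdps, Lipa and Srebf1, and for 4.85% of all genes tested, while 0 members and 4.65% of genes lay wholly below. Its call was lost without any one of treated libraries 1, 3 and 4 and young controls 2 and 3, and that of Sc5d without any one of treated libraries 1 and 2 and young controls 2, 3 and 5 (edgeR adjusted p up to 0.0898 and 0.0736). Of the 43 other sterol and isoprenoid genes, 10 (23.3%) were called higher and 4 lower, against 11.5% higher and 10.9% lower of all genes tested. Those higher were led by Nr1h3 (0.83 ± 0.12), Erg28, a scaffold protein of sterol enzymes (0.36 ± 0.07), and Acat1, the mitochondrial thiolase gene (0.41 ± 0.09). Those lower were led by Vldlr (-0.38 ± 0.09) and the cholesterol ester hydrolase gene Nceh1 (-0.37 ± 0.10). The sterol transporter genes Gramd1b (-0.48 ± 0.16) and Gramd1a (-0.33 ± 0.12) were lower.

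Within groups the enzyme genes moved by library. In young control 3, 15 of 19 synthesis enzymes had their lowest level of all 18 libraries, and the median of the enzymes' log2 CPM was -0.83 from their mean over the libraries. In the other young controls that median lay between -0.35 and 0.07. The share of all genes tested with their lowest level in young control 3 was not counted. The count of 15 of 19 is therefore not shown to be particular to these enzymes. Across genes young control 3 correlated at r of 0.961 to 0.966 with the other young controls, which correlated at 0.978 to 0.982 with each other. Cyp51 had 170 CPM in young control 3 against 376 to 642 CPM in the other young controls, and Idi1 77.8 CPM against 187 to 270 CPM. Insig1 (26.6 against 41.1 to 55.4 CPM) and Srebf2 (48.6 against 65.8 to 77.8 CPM) were lowest there too. Hsd17b7 was highest there among young controls, Ggps1 (68.7 CPM) was inside the range of the others, and Npc1 (59 against 42.6 to 50 CPM) and Npc2 (460 against 364 to 432 CPM) were above them.

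**Figure D4:**
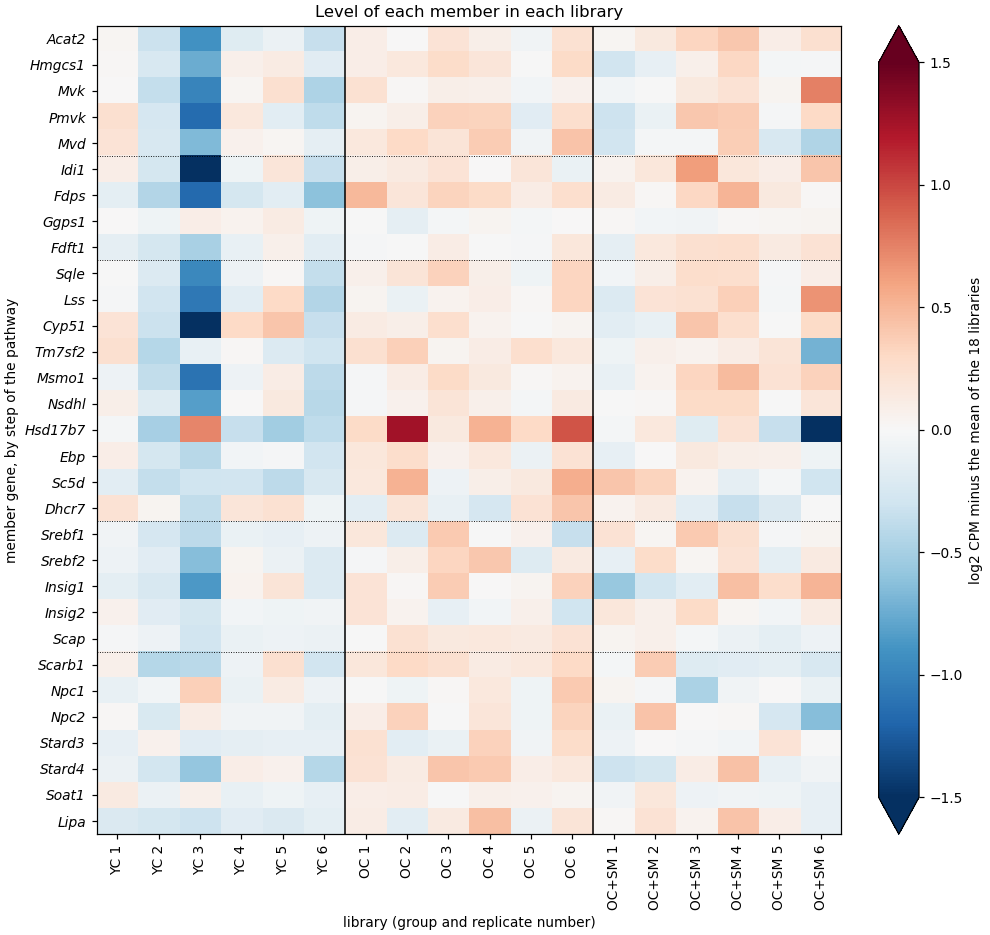
Log2 CPM minus the mean of the 18 libraries (color) for each member (rows, in pathway order) and library (columns, solid lines between groups). Young control 3 is blue for most enzyme genes, with 15 of 19 at their lowest there, and red for Hsd17b7. In treated library 6 Hsd17b7 is dark blue. The color scale is cut at both ends, so the most extreme values share a color.

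The median spread of the enzymes differed between the groups, and this difference was not tested. The standard deviation of log2 CPM over 6 libraries had a median over the 19 enzymes of 0.37 in 8-week controls, 0.12 in 40-week controls and 0.21 in treated mice. Without young control 3 it was 0.20 in 8-week controls. Ggps1 had the smallest spread of the enzymes in all 3 groups (0.04 to 0.08). Cyp51 had the largest of the enzymes in 8-week controls (0.71, and 0.36 without young control 3). Hsd17b7 had the largest in 40-week controls (0.44) and in treated mice (0.92). Without treated library 6 its value there was 0.23, and Pmvk had the largest (0.31).

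In treated mice, library 1 was the lowest of its group for 12 of 19 enzymes and library 4 the highest for 8. Treated library 6 was mixed. Lss (93.8 CPM), Mvk (59.1 CPM) and Insig1 (68.6 CPM) were the highest of all 18 libraries there, and Hsd17b7, Tm7sf2 (39.5 CPM), Npc2 (272.5 CPM) and Soat1 (745 CPM) the lowest. Aged control 5 was the lowest of the 40-week controls for 11 of 19 enzymes and aged control 6 the highest for 7. Shares of all genes tested were not counted for these libraries either.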

How the data were processed

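Ovarian RNA of 18 mice was made into QuantSeq 3' libraries (per the labels' protocols), a method reading transcript ends, so that counts need no length correction. Reads were handled with STAR 2.7.9a, RSEM 1.3.3 and FastQC 1.9 on build GRCm39, per the submitters' processing notes. The authors deposited, per the file headers, expected counts and TPM per gene and library, the TPM divided by effective length, which does not suit 3' tags and served only as an alternative. No source used here gives the annotation or strand setting, so overlapping, antisense or near-identical genes may share reads.

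Expected counts were rounded (87.4% of the deposited ones lay within 0.005 of a whole number). Symbols came from a mouse annotation matched by identifier (52083 of 55416), and 1 list gene was found by an older symbol. Genes kept by the edgeR filter (16959) were scaled by TMM (factors 0.94 to 1.07) and tested with edgeR 4.0.16 (quasi-likelihood, robust, two-sided, R 4.3.3). All 18 libraries entered 1 fit of 3 group means, with Benjamini-Hochberg adjustment over all genes. Fold changes are log2 values with standard errors (SE). CPM values use the TMM scaled totals. No pair of libraries of a group agreed within sampling noise (chi-square per degree of freedom at least 4.04). DESeq2 1.42.0 and limma 3.58.1 were alternatives, beside other scalings, filters, library sets, a covariate and thinning. The script was tested on simulated data for the age comparison over 16671 genes, where 54% of genes changed by 0.5 on the log2 scale and 96% of those changed by 1 were called.

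Members and lists were chosen with earlier results of these data known. All members were to be named, called ones with values in every group, and up to 5 called genes per direction of the other sterol list with the smallest p. Some called genes of that list are not reported here, and 1 had no row under its symbol.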

Additional observations from a re-analysis of the deposited data

Results flagged for a closer look

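Of 93 sets of 6 libraries (31 members in 3 groups), 10 held a library far from the other 5, where chance gives about 1 in 20. In 8-week controls these were Hsd17b7 in library 3 (981 CPM against 411 to 578), Scap in library 3 (152 against 173 to 184 CPM) and Stard3 in library 2 (21 against 17.9 to 18.5 CPM). In treated mice, library 6 was far above the others for Mvk (59.1 against 34.2 to 40.8 CPM) and below them for Tm7sf2 (39.5 against 61.6 to 73.4 CPM). Treated library 2 was high for Scarb1 (1365 against 886 to 1024 CPM) and Soat1 (917 against 745 to 788 CPM). Fdft1 was low in treated library 1 (110 against 133 to 144 CPM) and Npc1 in treated library 3 (33.2 against 43 to 47.2 CPM), and Stard3 was high in treated library 5 (23.1 against 19.1 to 20.2 CPM). None of the 10 was in a 40-week control library. Such a ratio is met in about 1 in 20 sets if values are normal and sets independent. These sets share libraries, and the rate over all genes tested was not counted.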

How the results depend on the processing

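The number of members called with age (8) was 5 with no low-count filter, 5 on the log2(TPM + 1) scale and 4 on the log2(TPM + 0.1) scale, and ran from 4 to 10 when single libraries were left out. With Samul-tang it was 0, and 1 on each of the log2 TPM scales and with DESeq2 (Soat1, Soat1 and Scap), and 0 without any 1 library. For treated against young (7) it was 3 with a covariate for the share of ENSMUSG00000119584, the most abundant gene, and ran from 5 to 10 without single libraries. The cause was not tested. The labels do not say that replicate numbers pair mice. Correlations of same-numbered libraries ran from -0.118 to 0.074 over 18 pairs, and 4 libraries correlated best with their own number. Low correlations cannot exclude that same-numbered mice were handled together. With a replicate block 6 members were called with age, 0 with Samul-tang and 7 for treated against young.

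Fdps, Sc5d and Scap were called with age in all 24 alternatives, Lipa in 22, Ebp in 19, Acat2 in 17, Stard4 in 13 and Sqle in 11. No called value changed sign. Of 744 values per comparison, called ones included, 12 changed sign with age (3 members), 28 with Samul-tang (12 members) and 34 for treated against young (8 members). All of those were values that were not called. Medians of the members ran from 0.22 to 0.34, from -0.12 to -0.03 and from 0.14 to 0.29. Over all genes, the 176 calls with Samul-tang became 45 with the fit limited to the 12 libraries of the comparison, 0 with the covariate (edgeR, with 1356 genes at an unadjusted p under 0.05), 483 without young control 3 and treated library 6, 663 with DESeq2, and from 32 to 593 without single libraries. At least 123 counts per member and library limit what counting error adds to these values.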
